A study of Homo sapiens with 15 samples.

Results

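The WNT and Frizzled signalling genes are 49 of the 58735 genes in the expression tables of the HEK293T knockout clones. They were chosen by name, through their GENCODE v29 symbols, with earlier results of these data known. They hold 11 WNT ligands, 2 genes of ligand modification and secretion, 10 Frizzled receptors, 5 co-receptors and 3 Dishevelled genes. The others are 4 genes of beta-catenin and its destruction complex, 4 TCF/LEF factors, 4 secreted inhibitors and 6 feedback targets. Of the 49 genes, 45 were abundant enough to be tested, with 0.5 FPKM or more in 3 or more libraries. FPKM is the number of sequenced fragments of a gene, scaled by its exon length and by the size of the library.

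WNT proteins are secreted lipid-modified ligands. PORCN attaches the lipid, and WLS carries the ligand to the cell surface, where it binds a Frizzled receptor together with LRP5 or LRP6. In the canonical branch, Dishevelled then restrains the complex of APC, AXIN1 and GSK3B that otherwise marks beta-catenin (CTNNB1) for destruction, and beta-catenin enters the nucleus and works with the TCF/LEF factors. AXIN2, NKD1, RNF43, ZNRF3, SP5 and NOTUM are classical targets that act back on the pathway, most of them as brakes. The non-canonical branches run through ligands such as WNT5A and receptors such as ROR2 and RYK. In kidney development, from whose tissue HEK293T is derived, WNT signals drive the branching of the ureteric bud and the formation of the nephron.

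HEK293T is an established line from human embryonic kidney, and all groups carried lentiCRISPRv2, a lentiviral vector with Cas9 and a guide RNA, and were selected with puromycin. The control was Non-target (genotype WT in the labels), with a guide that matches no gene, and the CRISPR knockout (CKO) clones carried guides to C9orf89 (C9orf89-CKO), MAGI2 (MAGI2-CKO), MLPH (MLPH-CKO) or RHBDD2 (RHBDD2-CKO). Their target genes came from the study's screen for supporting cells near tumor cells that survived cytarabine, and the clones were made afterwards. In the study, apoptosis under cytarabine was lower in co-culture with these CKO clones than with the control. Loss of the target protein was checked there by western blot or flow cytometry. Each group was a clone from limiting dilution, sequenced as 3 libraries from 3 culture wells without tumor cells, so that the 4 comparisons below rest on the same 3 Non-target libraries, and p-values measure the spread between wells, which may be technical, and not the spread between independent clones with the same guide. Clonal differences and effects of the knockout cannot be told apart in this design.

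The libraries held 15517856 to 19489918 fragments on genes, with a median of 16265355 in Non-target, 16429553 in C9orf89-CKO, 16209432 in RHBDD2-CKO, 18488218 in MLPH-CKO and 19423812 in MAGI2-CKO. The RNA of RHBDD2 averaged 33.5 ± 5.50 FPKM (SD, n = 3) in Non-target, against 12.4 ± 1.18 FPKM in its own knockout clone. It was also low in MAGI2-CKO at 13.8 ± 2.15 FPKM. Its log2 fold change was −1.42 in RHBDD2-CKO and −1.27 in MAGI2-CKO. The 100 nearest tested genes on chromosome 7 had medians of 0.04 and −0.51 in these clones. The part of this neighbourhood in the value was not tested. C9orf89, named CARD19 in GENCODE v29, averaged 6.56 ± 1.04 FPKM in Non-target, against 4.32 ± 0.0421 FPKM in C9orf89-CKO, but it was also low in RHBDD2-CKO at 4.79 ± 0.339 FPKM, where it fell by 0.44 (log2, adjusted p = 0.00489, limma, and 0.0526 in the 1 setting that lost the call). MAGI2 had 32 to 68 fragments per library and MLPH had 0 in all 15, so that their RNA gave no check of the labels of these clones.

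The libraries numbered 1 stood apart in every group. For genes with 10 or more fragments, the chi-square of a pair of libraries, divided by the number of genes, ranged from 14.6 to 24.8 where the pair held replicate 1 and from 2.40 to 6.54 where it did not. Counts of changed genes are therefore also given without these 5 libraries. Markers of the line were present in all libraries, with VIM at 40.1 to 87.9 FPKM, CDH2 at 14.4 to 24.8 FPKM and KRT18 at 11.3 to 18.5 FPKM. The pan-leukocyte marker PTPRC had at most 1 fragment in a library, MPO had 0, and the fibroblast genes COL1A2 and DCN had at most 1 and 2. Other genes of these lists were present, with COL1A1 at 353 to 1014 fragments per library and COL3A1, ITGB2 and LUM at up to 176, 105 and 47.

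Canonical WNT signals reach DNA through the TCF/LEF motif, and the windows in which it was found are shown because SP5 was among the genes that changed most. The letters CTTTGAT and CTTTGAA were searched on both strands in 300 bases of each RefSeq promoter, 250 before the gene start and 50 after it (GRCh38.p14). Of all 35116 promoters, 6.86% held a match, and of the 43 windows of 34 members in the table, 2 did, which is 4.65%. The other members had no window and were not searched, among them AXIN2, NOTUM, ZNRF3, NKD1, FZD10 and SFRP1. Below are the 250 bases before the gene start, in the direction of the gene, with the matches in capitals, for SP5 (chr2:170715087-170715336, plus strand) and DKK1 (chr10:52314031-52314280, plus strand).
SP5: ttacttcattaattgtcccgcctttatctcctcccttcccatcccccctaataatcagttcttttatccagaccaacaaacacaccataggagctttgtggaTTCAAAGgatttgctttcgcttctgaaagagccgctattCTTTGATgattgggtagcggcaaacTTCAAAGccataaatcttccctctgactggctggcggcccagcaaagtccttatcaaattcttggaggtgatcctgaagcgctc
DKK1: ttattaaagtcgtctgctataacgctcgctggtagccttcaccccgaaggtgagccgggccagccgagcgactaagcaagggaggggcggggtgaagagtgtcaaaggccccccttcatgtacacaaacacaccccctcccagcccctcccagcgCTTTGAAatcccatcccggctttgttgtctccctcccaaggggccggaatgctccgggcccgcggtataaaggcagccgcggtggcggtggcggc
SP5 holds 3 matches, whose first bases lie at −148, −109 and −84 from the gene start (the start itself is 0), and DKK1 holds 1 at −95. The match is a description of letters, and binding was not measured.

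By their level over all 15 libraries, the most abundant members were the Dishevelled gene DVL1 with a mean of 42.0 FPKM, CTNNB1 with 41.4 FPKM and WLS with 37.8 FPKM, ahead of DVL2 with 21.7 FPKM and LRP5 with 16.1 FPKM. The ranges of the first 3 over the libraries overlapped, and in Non-target their order was CTNNB1 (48.8 FPKM), WLS (39.7 FPKM) and DVL1 (33.1 FPKM). Among the Frizzled receptors, FZD2, FZD7 and FZD8 stood at 12.5, 12.3 and 10.7 FPKM, and the ranges of these 3 genes over the libraries overlapped. Among the ligands, WNT5A (5.85 FPKM) and WNT10B (5.79 FPKM) came first, also with overlapping ranges, followed by WNT11 (3.82 FPKM). Among the feedback targets, ZNRF3 was at 8.10 FPKM and AXIN2 at 2.47 FPKM, while RNF43 was at 0.406 FPKM. The levels are scaled by the merged length of all annotated exons, which can exceed that of the expressed transcript, so ranks between genes are approximate. CTNNB1 was scaled by 11927 bases and DVL1 by 3814. CTNNB1 had 6645 to 10382 fragments per library, against 1698 to 3811 for DVL1.

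The 4 members under the filter were the ligands WNT4, WNT7B and WNT10A and the inhibitor SFRP2. WNT4 had 0 to 10 fragments per library, WNT10A 0 to 3 and SFRP2 0 to 2, while WNT7B ranged from 1 fragment in a library of MAGI2-CKO to 46 in a library of MLPH-CKO. Their differences between groups were not tested.

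Members differed from Non-target in every clone, at shares close to those of all genes. A difference was called when limma's adjusted p (trend, log2(FPKM + 0.1), Benjamini-Hochberg over all 16175 tested genes) was under 0.05. In C9orf89-CKO 14 of the 45 tested members were called (31.1%), 9 higher and 5 lower, where 26.0% of all tested genes were called, 12.9% higher and 13.1% lower. In MAGI2-CKO 18 were called (40.0%), 5 higher and 13 lower, beside 36.1% of all genes, 17.0% higher and 19.1% lower.

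In MLPH-CKO 11 members were called (24.4%), 7 higher and 4 lower, beside 30.1% of all genes, 14.5% higher and 15.5% lower. In RHBDD2-CKO 16 were called (35.6%), 7 higher and 9 lower, beside 34.1% of all genes, 17.4% higher and 16.7% lower. The median log2 fold change of the tested members was −0.02, −0.07, 0.01 and −0.08 in the order of the clones above, and that of all genes was −0.0024, −0.00017, −0.0063 and 0.00038. These shares lie near the background and are no result about the list, and the results below concern single members.

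Without the 5 libraries numbered 1, the called members were 16, 20, 15 and 19, beside 32.4%, 40.4%, 36.9% and 42.0% of all genes. With only the libraries of RHBDD2-CKO and Non-target in the fit, 8 members were called in RHBDD2-CKO, beside 25.7% of all genes. With voom on the recovered fragments, 61.3% of all calls in RHBDD2-CKO were upward, against 51.0% in the fit used here.

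**Figure D1:**
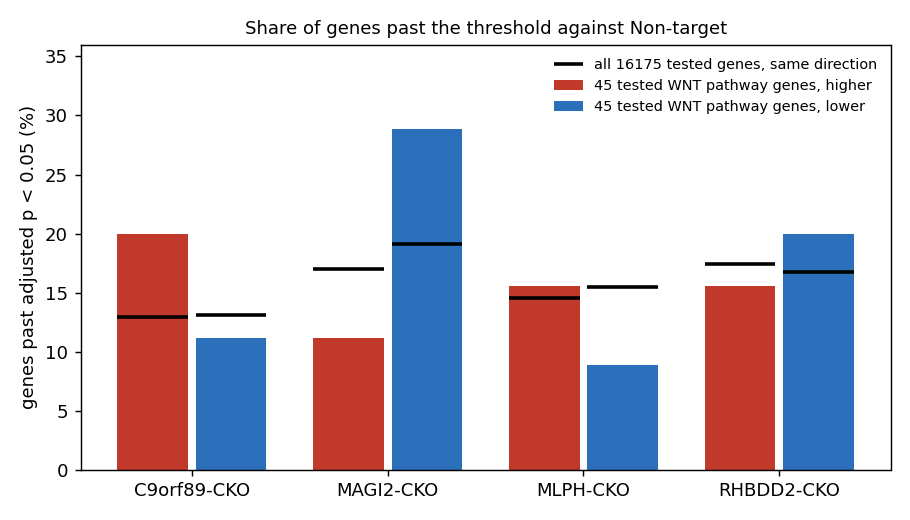
Share of the 45 tested WNT pathway genes past an adjusted p of 0.05 against Non-target (limma), split by direction, for each CKO clone. Bars are the members and black lines are all 16175 tested genes in the same direction. The members called lower in MAGI2-CKO (13 of 45) lie above the line of 19.1%, and those called lower in MLPH-CKO (4 of 45) lie below the line of 15.5%.

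Of the 45 tested members, 30 were called in 1 or more clones (66.7%, beside 61.5% of all genes) and 15 in none (33.3%, beside 38.5%). WNT6 was the single member higher in all 4 clones (2.22%, beside 3.39% of all genes), and 0 members were lower in all 4 (0.00%, beside 3.26%), in limma. Without the 5 libraries numbered 1, DVL1 was also higher in all 4 and CTNNB1 was lower in all 4, at an adjusted p under the same threshold. With all libraries and an unadjusted p under 0.05, 1 member was lower in all 4, CTNNB1, and with voom 0 were. WNT3A, FZD10, ROR2, LEF1 and SFRP1 were called higher in one clone and lower in another (11.1%, beside 7.28% of all genes).

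**Figure D2:**
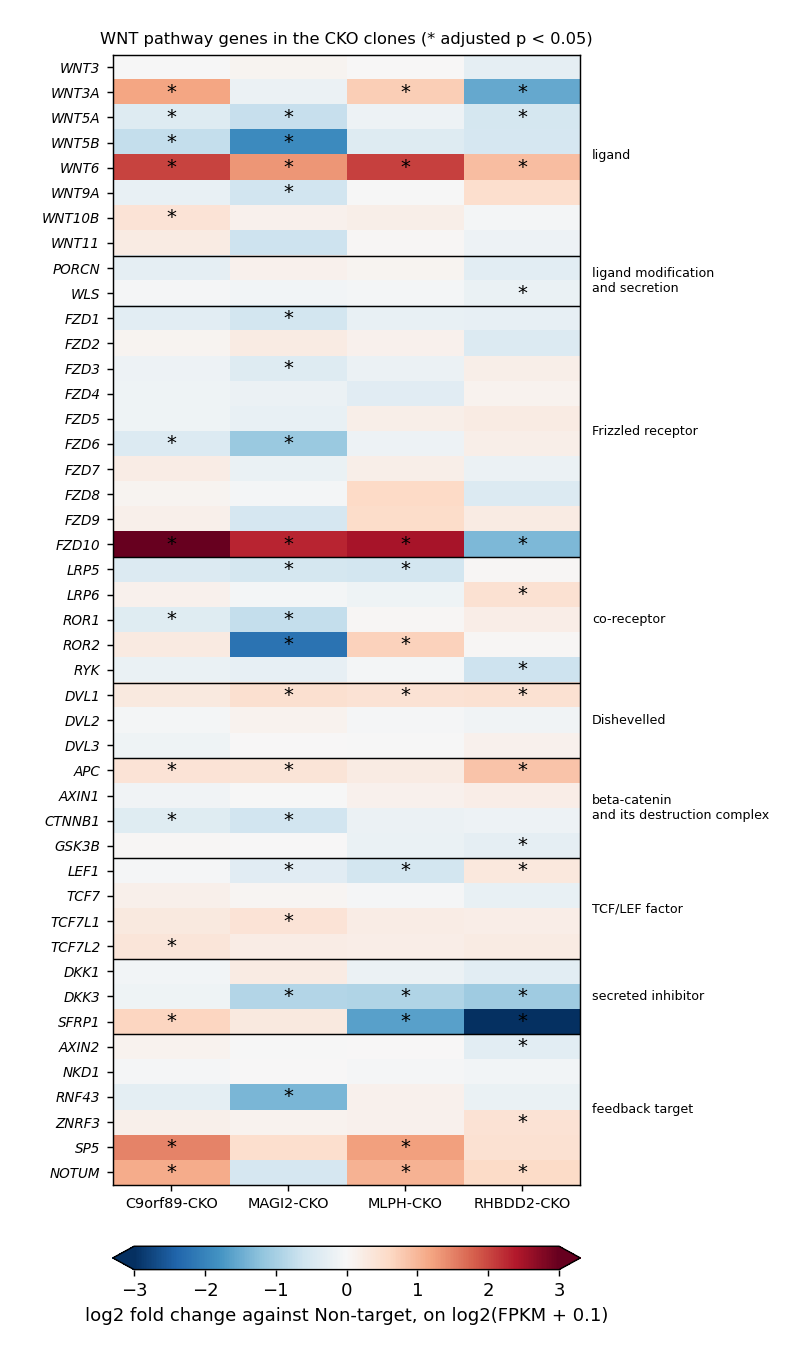
Log2 fold change against Non-target, on log2(FPKM + 0.1), of the 45 tested WNT pathway genes (rows, by role) in the 4 CKO clones (columns). Red is higher, blue is lower, the colours saturate at 3 in size, and a star marks an adjusted p under 0.05 in limma. FZD10 is red in 3 clones and blue in RHBDD2-CKO, and SFRP1 is the darkest blue, in RHBDD2-CKO.

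Among the ligands, WNT6 and WNT3A rose the most and WNT5B fell the most. Of the 8 tested ligands, 3 rose and 2 fell in C9orf89-CKO, 1 rose and 3 fell in MAGI2-CKO, 1 rose and 2 fell in RHBDD2-CKO, and 2 rose in MLPH-CKO. Of all genes, 12.9% rose and 13.1% fell in C9orf89-CKO, 17.0% and 19.1% in MAGI2-CKO, 17.4% and 16.7% in RHBDD2-CKO and 14.5% and 15.5% in MLPH-CKO, and the ligands as a group were not tested against these shares. The summed FPKM of the 11 ligands was 24.1 ± 2.95 (SD, n = 3) in Non-target, 27.1 ± 2.11 in C9orf89-CKO, 26.1 ± 2.12 in MLPH-CKO, 19.5 ± 2.31 in RHBDD2-CKO and 18.5 ± 1.48 in MAGI2-CKO.

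WNT6 (ENSG00000115596, chromosome 2, 218859821 to 218874233, GRCh38), a canonical ligand of epithelia and of kidney tubule induction, was low in Non-target, at 0.183, 0.379 and 0.402 FPKM. It was at 1.32, 1.86 and 1.55 FPKM in C9orf89-CKO, at 0.907, 0.969 and 0.872 in MAGI2-CKO, at 1.35, 1.34 and 2.18 in MLPH-CKO and at 0.453, 0.867 and 0.758 in RHBDD2-CKO. Every library of every clone lay above every Non-target library. On the log2 scale, WNT6 rose by 2.04 (adjusted p = 0.000108, limma) in MLPH-CKO, by 2.02 ± 0.27 (SE, 0.00014) in C9orf89-CKO and by 1.31 (0.00198) in MAGI2-CKO. In RHBDD2-CKO the log2 fold change was 0.92 (adjusted p = 0.0186, limma), a call that was lost without Non-target replicate 1 (0.0714), RHBDD2-CKO replicate 2 (0.0758) or replicate 3 (0.0637), and with 3 other settings (0.0566 to 0.0942). Non-target had 27 WNT6 fragments in its 3 libraries together, which limits the precision of these folds.

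WNT3A (ENSG00000154342, chromosome 1, 228007051 to 228061260), a canonical ligand widely used to activate beta-catenin, was at 1.47, 2.14 and 1.59 FPKM in Non-target. It was at 3.43, 4.05 and 4.67 FPKM in C9orf89-CKO, 1.37, 1.78 and 1.40 in MAGI2-CKO, 2.48, 2.95 and 3.48 in MLPH-CKO and 0.451, 0.644 and 0.482 in RHBDD2-CKO. C9orf89-CKO and MLPH-CKO lay wholly above Non-target, RHBDD2-CKO lay wholly below it, and MAGI2-CKO overlapped with it. The gene rose by 1.19 ± 0.18 on the log2 scale in C9orf89-CKO (adjusted p = 0.000399, limma) and by 0.75 in MLPH-CKO (0.00704), and it fell by 1.55 in RHBDD2-CKO (3.61e-05). These 3 calls held in all 25 other settings. The genes nearest to WNT3A on chromosome 1 had median changes of −0.07, −0.04 and 0.01 in the same clones (the 100 nearest tested genes, here and below).

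WNT5B (ENSG00000111186, chromosome 12, 1529891 to 1647243), a ligand of the non-canonical branch, was at 2.00, 2.70 and 2.40 FPKM in Non-target, whereas MAGI2-CKO stood at 0.526, 0.527 and 0.619 FPKM. The groups did not overlap, and the gene fell by 1.90 ± 0.20 (log2, adjusted p = 1.27e-05, limma). It was at 1.17, 1.42 and 1.60 FPKM in C9orf89-CKO, 1.74, 1.31 and 2.45 in MLPH-CKO and 1.56, 1.93 and 1.43 in RHBDD2-CKO. The change in C9orf89-CKO, −0.72 (adjusted p = 0.0185, limma), lost its call without Non-target replicate 2 (0.0749) or 3 (0.0544), without C9orf89-CKO replicate 1 (0.0711) and without the 5 libraries numbered 1 (0.0831). The library kit does not mark strand, and WNT5B shares sequence positions with FBXL14 on the opposite strand, whose mean was 12.3 FPKM.

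WNT5A (ENSG00000114251, chromosome 3, 55465715 to 55490539), the main non-canonical ligand, had the highest ligand mean over all 15 libraries. WNT10B had a higher mean than WNT5A in C9orf89-CKO (6.97 against 5.61 FPKM) and in MAGI2-CKO (5.75 against 4.55 FPKM). WNT5A was at 7.38 ± 0.258 FPKM in Non-target. It fell by 0.39 (log2) to 5.61 ± 0.487 FPKM in C9orf89-CKO (adjusted p = 0.00591, limma), by 0.68 to 4.55 ± 0.141 FPKM in MAGI2-CKO (6.55e-05) and by 0.54 to 5.06 ± 0.529 FPKM in RHBDD2-CKO (0.00054). In MLPH-CKO it was at 6.64 ± 0.585 FPKM. It overlaps with WNT5A-AS1 on the opposite strand, whose mean was 6.55 FPKM. WNT10B rose by 0.40 in C9orf89-CKO (adjusted p = 0.0108, limma, and 0.0626 without the libraries numbered 1), and WNT9A changed by −0.57 in MAGI2-CKO (0.0455, limma), a call lost in 17 of the 24 other settings that tested it, up to 0.175 without MAGI2-CKO replicate 3. WNT3 and WNT11 were called in no clone.

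Of the 2 genes of ligand modification and secretion, PORCN was called in no clone. WLS was at 39.7 ± 1.02 FPKM in Non-target, whereas RHBDD2-CKO stood at 34.8 ± 2.38 FPKM, a log2 fold change of −0.19 (adjusted p = 0.041, limma) whose call was lost in 13 of the 25 other settings, up to 0.326 with quantile normalization. Leaving out any Non-target library (0.0502 to 0.116), RHBDD2-CKO replicate 1 (0.063) or 2 (0.164), C9orf89-CKO replicate 3 (0.0541), MAGI2-CKO replicate 3 (0.053) or MLPH-CKO replicate 2 (0.0527) was enough to lose it.

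FZD10 moved more than any other Frizzled receptor, and it did so in opposite directions between clones. FZD10 (ENSG00000111432, chromosome 12, 130162459 to 130165740) is a canonical receptor that most adult tissues hardly express. It was at 0.304, 0.216 and 0.260 FPKM in Non-target, whereas C9orf89-CKO stood at 2.95, 3.13 and 2.96 FPKM. In MAGI2-CKO it was at 1.37, 1.93 and 1.65 FPKM, in MLPH-CKO at 1.60, 1.80 and 2.34 and in RHBDD2-CKO at 0.101, 0 and 0.0375. No library of any clone overlapped with Non-target, with 3 clones above it and RHBDD2-CKO below it.

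The mean FPKM of FZD10 was 11.6 times that of Non-target in C9orf89-CKO, 6.34 times in MAGI2-CKO and 7.35 times in MLPH-CKO, with log2 fold changes of 3.12 ± 0.23 (adjusted p = 1.05e-06, limma), 2.28 (9.68e-06) and 2.47 (6.98e-06). In RHBDD2-CKO the log2 fold change was −1.35 (adjusted p = 0.000739, limma), with 8 fragments in its 3 libraries together against 42 in Non-target and a size that moved between −2.84 and −0.27 with the settings. All 4 calls held in the 25 other settings. The genes nearest to FZD10 had median changes of −0.36, −0.35, −0.43 and −0.30, which is opposite to FZD10 in 3 of the clones.

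FZD6 (ENSG00000164930, chromosome 8, 103298433 to 103332866), a receptor known for planar cell polarity, was at 6.50, 5.01 and 6.72 FPKM in Non-target. It was at 4.32, 4.68 and 4.55 FPKM in C9orf89-CKO, 2.80, 2.96 and 2.52 in MAGI2-CKO, 5.44, 5.38 and 5.38 in MLPH-CKO and 6.93, 6.45 and 7.17 in RHBDD2-CKO. MAGI2-CKO was the lowest group, with no overlap with any other. The gene fell by 1.10 ± 0.10 (log2, adjusted p = 3.29e-06, limma) in MAGI2-CKO. FZD6 overlaps with BAALC-AS1 on the opposite strand, which had at most 24 fragments in a library. The change of −0.41 in C9orf89-CKO (adjusted p = 0.00888, limma) lost its call with only the 6 libraries compared (0.0662) and without the libraries numbered 1 (0.113).

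Of the other 8 Frizzled genes, 2 passed the threshold, each in MAGI2-CKO alone, where 36.1% of all genes were called and 19.1% were lower. FZD1 fell by 0.55 in MAGI2-CKO (adjusted p = 0.00292, limma), beside a median of −0.52 for its neighbours on chromosome 7. FZD3 changed by −0.38 in MAGI2-CKO (0.0253, limma), a call lost without Non-target replicate 1 (0.0517) or 3 (0.0969) and MAGI2-CKO replicate 3 (0.0986). FZD2 had the highest Frizzled mean over all 15 libraries, but not in every group. FZD7 had a higher mean in C9orf89-CKO (14.3 FPKM), MLPH-CKO (13.8) and RHBDD2-CKO (10.7), and FZD8 had one in MLPH-CKO (15.3). FZD2 was at 12.3 ± 2.22 FPKM in Non-target, 14.4 ± 2.26 in MAGI2-CKO and 13.4 ± 1.64 in MLPH-CKO. It was at 13.0 ± 1.64 FPKM in C9orf89-CKO and 9.38 ± 2.48 in RHBDD2-CKO, and it passed the threshold in no clone. FZD4, FZD5, FZD7, FZD8 and FZD9 were also called in no clone. The summed FPKM of the 10 receptors was 60.4 ± 6.96 in Non-target and 53.9 ± 7.67 to 71.9 ± 9.85 in the clones.

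**Figure D3:**
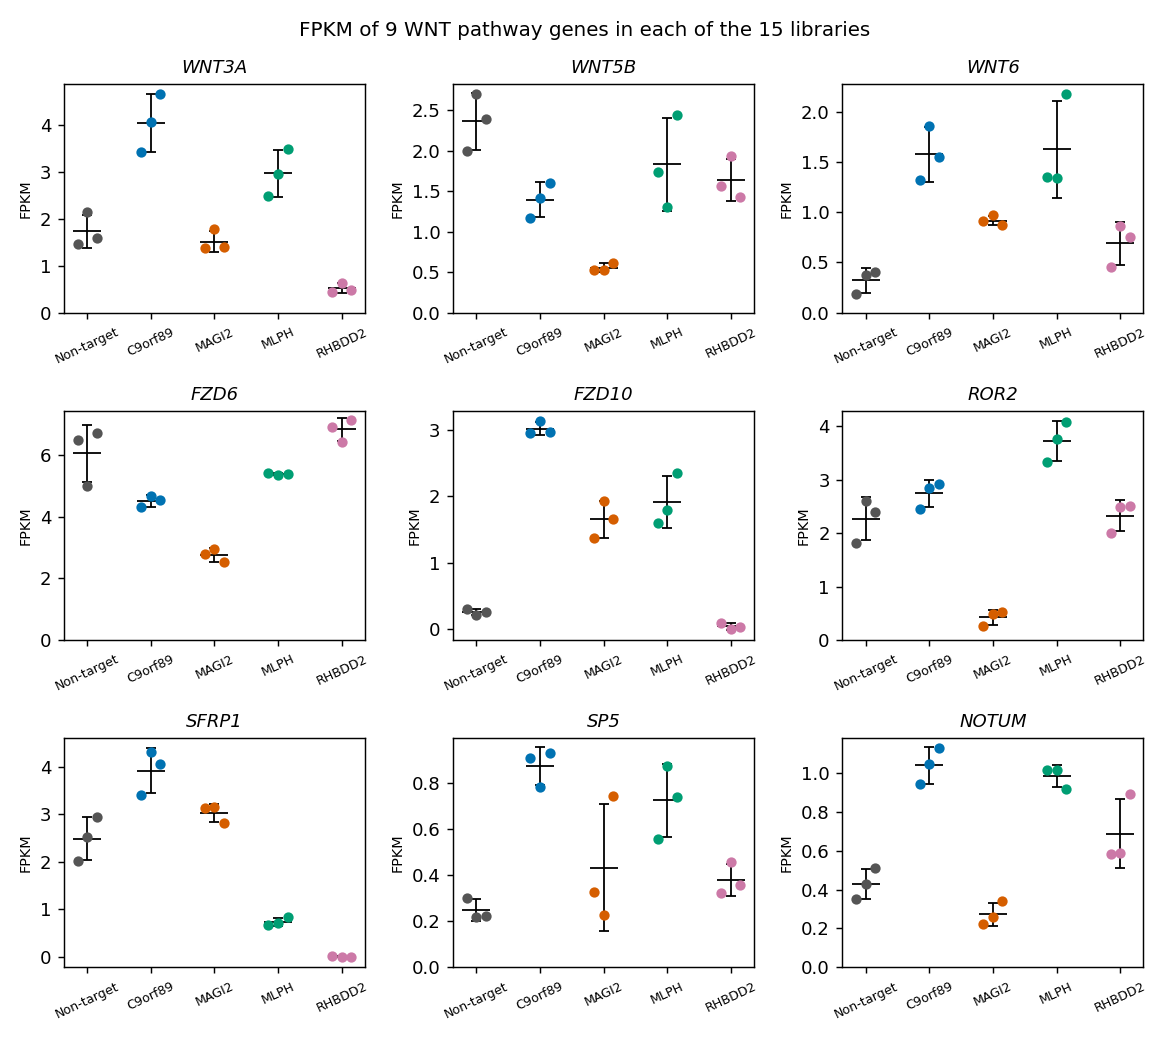
FPKM in each of the 15 libraries of 9 WNT pathway genes, by group (Non-target and the 4 CKO clones, 3 libraries each). Points are libraries, in the order 1 to 3, and black bars are the mean ± SD. FZD10 reaches 3.13 FPKM in C9orf89-CKO and at most 0.304 FPKM in Non-target, and SFRP1 is at or near 0 in the 3 RHBDD2-CKO libraries.

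ROR2 was the co-receptor with the largest difference. ROR2 (ENSG00000169071, chromosome 9, 91563091 to 91950162) is a receptor tyrosine kinase that binds WNT5A. ROR2 was at 1.82, 2.60 and 2.39 FPKM in Non-target, whereas MAGI2-CKO stood at 0.257, 0.479 and 0.528 FPKM. In C9orf89-CKO it was at 2.46, 2.85 and 2.93 FPKM, in MLPH-CKO at 3.33, 3.77 and 4.08 and in RHBDD2-CKO at 2.00, 2.49 and 2.50. MAGI2-CKO lay below and MLPH-CKO above all the other groups, without overlap.

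ROR2 fell by 2.21 ± 0.20 (log2, adjusted p = 3.05e-06, limma) in MAGI2-CKO, where its mean was 0.186 times that of Non-target, and the median of its neighbours was −0.16. Its rise of 0.70 in MLPH-CKO (adjusted p = 0.0168, limma) lost the call without Non-target replicate 1 (0.0695) or MLPH-CKO replicate 3 (0.0622). ROR1, the related receptor, fell by 0.37 in C9orf89-CKO (adjusted p = 0.00475, limma) and by 0.71 in MAGI2-CKO (2.22e-05).

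RYK, a co-receptor with an inactive kinase domain, fell by 0.62 in RHBDD2-CKO (adjusted p = 0.000293, limma), where its neighbours on chromosome 3 had a median of −0.47. LRP6 rose by 0.46 in RHBDD2-CKO (0.00762, limma, and 0.0652 with only the 6 libraries compared). LRP5, the most abundant co-receptor, was at 19.4 ± 3.27 FPKM in Non-target, 19.7 ± 2.94 in RHBDD2-CKO, 13.2 ± 2.40 in MLPH-CKO, 13.4 ± 2.54 in MAGI2-CKO and 14.4 ± 1.76 in C9orf89-CKO. The calls of LRP5 in MAGI2-CKO (−0.53, adjusted p = 0.0364, limma) and MLPH-CKO (−0.55, 0.0359) were lost without Non-target replicate 2 (0.118 and 0.116) or 3 (0.121 and 0.12) and without replicate 1 (0.146 and 0.134) or 2 (0.0634 and 0.0632) of the clone itself, as well as with only the 6 libraries compared (0.0721 and 0.0825) and with no filter on low values (0.0666 and 0.0662).

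DVL1 rose and CTNNB1 and WNT5A fell in several clones, and the medians of the genes around them lay on the same side of 0. DVL1 (ENSG00000107404, chromosome 1, 1335276 to 1349350) relays the signal from Frizzled. It was at 27.7, 36.7 and 34.9 FPKM in Non-target and at 36.4 to 51.2 FPKM in the 12 libraries of the clones, which overlapped with Non-target in C9orf89-CKO alone. DVL1 rose by 0.47 in MAGI2-CKO (log2, adjusted p = 0.0137, limma), where its neighbours had a median of 0.62, by 0.44 in MLPH-CKO (0.0232), beside 0.49, and by 0.47 in RHBDD2-CKO (0.0154), beside 0.46. The difference of 0.30 in C9orf89-CKO (0.122) stood beside a median of 0.41, and it passed the threshold without the libraries numbered 1 (0.0158). Without Non-target replicate 1 the 3 calls were lost (0.0593, 0.0957 and 0.0624), as they were without MAGI2-CKO replicate 3 (0.061), MLPH-CKO replicate 2 (0.0716) or 3 (0.0681), and RHBDD2-CKO replicate 2 (0.0652) or 3 (0.052), each in its own clone. The calls in MAGI2-CKO and RHBDD2-CKO were also lost with only the 6 libraries compared (0.0522 and 0.0613). DVL1 overlaps with TAS1R3 on the opposite strand, which had at most 29 fragments in a library. DVL2 and DVL3 were called in no clone.

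CTNNB1 (ENSG00000168036, chromosome 3, 41194741 to 41260096), which encodes beta-catenin, was at 48.1, 48.8 and 49.6 FPKM in Non-target. It was at 33.7, 41.3 and 39.7 FPKM in C9orf89-CKO, 32.4, 32.3 and 33.3 in MAGI2-CKO, 42.5, 43.3 and 43.7 in MLPH-CKO and 44.4, 43.4 and 44.7 in RHBDD2-CKO. All 12 clone libraries lay below the 3 of Non-target. CTNNB1 fell by 0.36 ± 0.06 (log2) in C9orf89-CKO (adjusted p = 0.00134, limma) and by 0.58 in MAGI2-CKO (1.91e-05). The differences of −0.18 in MLPH-CKO (adjusted p = 0.0529, limma) and −0.14 in RHBDD2-CKO (0.102) did not pass the threshold, but did without the libraries numbered 1 (0.00946 and 0.0132) and without C9orf89-CKO replicate 1 (0.0063 and 0.017), which is not in these contrasts but enters the estimate of the spread. The neighbours on chromosome 3 had medians of −0.36, −0.30, −0.32 and −0.24, and those of WNT5A, on the same chromosome, of −0.32, −0.21, −0.29 and −0.20. The part of these neighbourhoods in the values was not tested. CTNNB1 overlaps with ULK4 on the opposite strand, which had at most 81 fragments in a library.

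APC (ENSG00000134982, chromosome 5, 112707498 to 112846239), a scaffold of the destruction complex, was at 3.63, 2.83 and 3.72 FPKM in Non-target, whereas RHBDD2-CKO stood at 6.40, 6.07 and 6.16 FPKM, without overlap. It rose by 0.86 ± 0.10 in RHBDD2-CKO (log2, adjusted p = 3.73e-05, limma), beside a median of 0.13 for its neighbours. It also rose by 0.42 in C9orf89-CKO (0.00829, limma) and 0.39 in MAGI2-CKO (0.00925), calls that were lost with only the 6 libraries compared (0.0516 and 0.0515). GSK3B, the kinase of the complex, changed by −0.26 in RHBDD2-CKO (0.0169, limma), beside −0.35 for its neighbours, and lost the call without Non-target replicate 1 (0.0651), RHBDD2-CKO replicate 2 (0.0657) or the libraries numbered 1 (0.0689). AXIN1 was called in no clone.

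Of the 4 TCF/LEF factors, LEF1 differed most. LEF1 (ENSG00000138795, chromosome 4, 108047545 to 108168956) is both a partner of beta-catenin and a target of the pathway. It was at 6.97, 7.41 and 6.75 FPKM in Non-target, 6.65, 6.50 and 7.67 in C9orf89-CKO, 5.72, 5.87 and 5.18 in MAGI2-CKO, 4.52, 4.93 and 4.77 in MLPH-CKO and 7.55, 9.47 and 9.60 in RHBDD2-CKO. MLPH-CKO was the lowest group and RHBDD2-CKO lay above all Non-target libraries.

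LEF1 fell by 0.56 ± 0.10 in MLPH-CKO (log2, adjusted p = 0.000771, limma), where its neighbours had a median of −0.41. The fall of 0.33 in MAGI2-CKO (0.0168, limma) lost its call without Non-target replicate 2 (0.061) or MAGI2-CKO replicate 3 (0.0693). The rise of 0.32 in RHBDD2-CKO (0.0205, limma) lost it without Non-target replicate 3 (0.071) or RHBDD2-CKO replicate 2 (0.0796) or 3 (0.0879), and with only the 6 libraries compared (0.0779). TCF7L1 rose by 0.40 in MAGI2-CKO (0.0116, limma, and 0.078 without the libraries numbered 1). TCF7L2 changed by 0.36 in C9orf89-CKO (0.0187, limma), beside 0.32 for its neighbours, and lost the call without Non-target replicate 2 (0.0816) or C9orf89-CKO replicate 1 (0.0727) or 2 (0.0685). TCF7 was called in no clone.

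Of the secreted inhibitors, SFRP1 and DKK3 were called lower in both RHBDD2-CKO and MLPH-CKO, where 16.7% and 15.5% of all genes were, and DKK1 was called in no clone. The summed FPKM of the 4 genes was 4.64 ± 0.664 (SD, n = 3) in Non-target, 5.89 ± 0.742 in C9orf89-CKO and 4.76 ± 0.482 in MAGI2-CKO, and it was 2.13 ± 0.274 in MLPH-CKO and 1.28 ± 0.0953 in RHBDD2-CKO. SFRP1 alone made up 2.49 FPKM of the Non-target sum, against 0.00385 FPKM of that of RHBDD2-CKO, and the 4 genes were not tested as a group. In bulk RNA, fewer cells that express a gene and less RNA per cell cannot be told apart.

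SFRP1 (ENSG00000104332, chromosome 8, 41261958 to 41309497) encodes a soluble Frizzled-like protein that binds WNT ligands outside the cell. It was at 2.02, 2.51 and 2.93 FPKM in Non-target, whereas RHBDD2-CKO stood at 0.0116, 0 and 0 FPKM. SFRP1 was at 3.40, 4.30 and 4.06 FPKM in C9orf89-CKO, 3.13, 3.15 and 2.81 in MAGI2-CKO and 0.656, 0.702 and 0.825 in MLPH-CKO. RHBDD2-CKO lay below all libraries of every other group, MLPH-CKO was next, and C9orf89-CKO lay above Non-target.

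The 3 RHBDD2-CKO libraries held 1 SFRP1 fragment in all, against 584 in Non-target. Scaled by library size, Non-target was 585 times as high, with an exact 95% interval of 105 to 23144 that covers counting error only. The log2 fold change of SFRP1 was −4.62 ± 0.15 in RHBDD2-CKO (adjusted p = 3.83e-10, limma), a size that ran from −8.04 to −1.79 over the settings because it depends on the pseudocount. In MLPH-CKO it fell by 1.63 (4.53e-06, limma). Its rise of 0.65 in C9orf89-CKO (0.00586, limma) lost the call with a pseudocount of 0.01 (0.0899). The neighbours of SFRP1 had medians of −0.06 in RHBDD2-CKO, −0.04 in MLPH-CKO and 0.00 in C9orf89-CKO.

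DKK3, a divergent member of the Dickkopf family, was at 0.997, 1.47 and 1.05 FPKM in Non-target and 0.922, 1.14 and 1.09 in C9orf89-CKO. It was at 0.601, 0.612 and 0.537 FPKM in MAGI2-CKO, 0.509, 0.713 and 0.507 in MLPH-CKO and 0.414, 0.584 and 0.522 in RHBDD2-CKO. These 3 clones did not overlap with Non-target. DKK3 fell by 1.06 in RHBDD2-CKO (log2, adjusted p = 0.0008, limma), by 0.91 in MLPH-CKO (0.00253) and by 0.88 in MAGI2-CKO (0.00235), and the 3 calls held in the 24 other settings in which the gene was tested.

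The feedback targets did not move as one. SP5 and NOTUM rose in C9orf89-CKO and MLPH-CKO, while AXIN2, often read as the general target of the pathway, did not pass the threshold in either. AXIN2 (ENSG00000168646, chromosome 17, 65528563 to 65561647) was at 2.94, 2.46 and 2.24 FPKM in Non-target, 2.82, 2.57 and 2.85 in C9orf89-CKO, 2.26, 2.51 and 2.77 in MAGI2-CKO, 2.31, 2.73 and 2.58 in MLPH-CKO and 2.03, 1.95 and 2.08 in RHBDD2-CKO. Only RHBDD2-CKO lay wholly outside Non-target among these groups. Its change of −0.31 (adjusted p = 0.0421, limma) was lost in 12 of the 25 other settings, with leaving out Non-target replicate 1 (0.159) or 2 (0.0734), any RHBDD2-CKO library (0.0734 to 0.111), C9orf89-CKO replicate 3 (0.053), MAGI2-CKO replicate 2 (0.056) or MLPH-CKO replicate 3 (0.053) among them.

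SP5 (ENSG00000204335, chromosome 2, 170715351 to 170718078), a repressor that beta-catenin switches on and whose promoter window is printed above, was at 0.302, 0.219 and 0.221 FPKM in Non-target. It was at 0.911, 0.782 and 0.932 FPKM in C9orf89-CKO, 0.325, 0.225 and 0.746 in MAGI2-CKO, 0.558, 0.876 and 0.741 in MLPH-CKO and 0.321, 0.459 and 0.358 in RHBDD2-CKO. C9orf89-CKO, MLPH-CKO and RHBDD2-CKO did not overlap with Non-target, and MAGI2-CKO did. SP5 rose by 1.49 ± 0.30 in C9orf89-CKO (log2, adjusted p = 0.00305, limma) and by 1.24 in MLPH-CKO (0.00796), and these calls held in each of the 24 other settings that kept the gene. Non-target had 25 SP5 fragments in its 3 libraries together. DKK1, the other member with a match in the window, was called in no clone. The feedback targets AXIN2, NOTUM, ZNRF3 and NKD1 had no window and were not searched for the motif.

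NOTUM, an enzyme that removes the lipid from WNT, was at 0.351, 0.428 and 0.510 FPKM in Non-target. It was at 0.943, 1.05 and 1.13 FPKM in C9orf89-CKO, 0.222, 0.256 and 0.339 in MAGI2-CKO, 1.02, 1.02 and 0.921 in MLPH-CKO and 0.584, 0.587 and 0.896 in RHBDD2-CKO. MAGI2-CKO lay below and the other clones above Non-target, without overlap. The gene rose by 1.12 ± 0.19 in C9orf89-CKO (log2, adjusted p = 0.00103, limma) and 1.05 in MLPH-CKO (0.00135). The differences in RHBDD2-CKO (0.56, adjusted p = 0.0394, limma, and 0.171 without RHBDD2-CKO replicate 3) and MAGI2-CKO (−0.51, 0.0569) lay close to the threshold, and the first was lost in 11 of the 24 other settings that tested it, with leaving out Non-target replicate 1 (0.121) or 2 (0.0829), C9orf89-CKO replicate 2 (0.0526) or 3 (0.0504) and MLPH-CKO replicate 1 (0.0501) or 2 (0.0524) also among them.

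RNF43 and ZNRF3 are related ubiquitin ligases that remove Frizzled from the cell surface. RNF43 was at 0.490, 0.456 and 0.562 FPKM in Non-target, whereas MAGI2-CKO stood at 0.172, 0.0893 and 0.143 FPKM, and it fell by 1.37 ± 0.27 there (log2, adjusted p = 0.00171, limma). In C9orf89-CKO it was at 0.597, 0.436 and 0.216 FPKM, in MLPH-CKO at 0.518, 0.566 and 0.574 and in RHBDD2-CKO at 0.477, 0.378 and 0.409, and these groups passed no threshold. ZNRF3 rose by 0.43 in RHBDD2-CKO (0.0112, limma), from 7.18 ± 0.692 to 9.71 ± 0.969 FPKM, where its neighbours had a median of 0.29. NKD1 was called in no clone.

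Whether clones differ from each other was tested in the same fit. Of the 45 members, 35 were called in 1 or more of the 6 pairs of clones (77.8%, beside 60.2% of all genes). RHBDD2-CKO differed from MAGI2-CKO in 25 members (55.6%, beside 41.6%), from C9orf89-CKO in 22 (48.9%, beside 29.3%) and from MLPH-CKO in 19 (42.2%, beside 37.0%). MAGI2-CKO was lower than C9orf89-CKO in 14 members and higher in 1 (33.3% called), where 22.5% of all genes were called, 12.7% lower and 9.76% higher. MLPH-CKO was higher than MAGI2-CKO in 11 and lower in 1 (26.7%), beside 21.2% of all genes, 11.8% higher and 9.40% lower. MLPH-CKO and C9orf89-CKO differed in 4 members (8.89%, beside 14.2%), which were ROR1, LEF1, DKK3 and SFRP1. The call of DKK3 there (−0.78, adjusted p = 0.0133, limma) was lost without C9orf89-CKO replicate 2 (0.0561) or MLPH-CKO replicate 3 (0.0548).

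The 5 members called in opposite directions were chosen for those calls in the same libraries, which fixes the direction between the clones, so that their differences are given as a description. On the log2 scale, RHBDD2-CKO minus C9orf89-CKO was −5.27 for SFRP1, −4.47 for FZD10 and −2.73 for WNT3A. RHBDD2-CKO minus MLPH-CKO was −2.30 for WNT3A and 0.88 for LEF1. MLPH-CKO minus MAGI2-CKO was 2.91 for ROR2.

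A list of 88 further genes of the pathway was read beside the members, of which 62 were tested. In C9orf89-CKO 16 were called (7 higher, 9 lower, 25.8%), in MAGI2-CKO 24 (11 and 13, 38.7%), in MLPH-CKO 29 (14 and 15, 46.8%) and in RHBDD2-CKO 24 (9 and 15, 38.7%), beside the background of 26.0%, 36.1%, 30.1% and 34.1% of all genes. Among the R-spondin receptors and other agonists, 4 of 5 tested genes fell in MAGI2-CKO, beside 19.1% of all genes. Of the 13 tested planar polarity genes, 5 fell in RHBDD2-CKO, beside 16.7% of all genes, among them VANGL2 by 0.68 (adjusted p = 6.63e-05, limma). Both groups are small, were singled out after their values were seen, and were not tested against these shares.

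CCND1, the cyclin D1 gene and a known target, was lower in all 4 clones. It was at 10.8, 10.4 and 11.4 FPKM in Non-target, 9.47, 9.74 and 8.78 in C9orf89-CKO, 8.57, 8.78 and 8.95 in MAGI2-CKO, 6.34, 6.47 and 6.94 in MLPH-CKO and 3.01, 3.63 and 3.11 in RHBDD2-CKO. No clone overlapped with Non-target. Its log2 fold change was −0.31 in MAGI2-CKO (adjusted p = 0.00613, limma), −0.71 in MLPH-CKO (1.62e-05) and −1.72 in RHBDD2-CKO (5.7e-09), while that of −0.22 in C9orf89-CKO (0.0467) was lost in 19 of the 25 other settings, up to 0.159 without Non-target replicate 3 and 0.158 without C9orf89-CKO replicate 3.

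SNAI2, a mesenchymal transcription factor, was at 14.0, 12.2 and 12.1 FPKM in Non-target, 37.2, 33.4 and 32.5 FPKM in MAGI2-CKO and 1.61, 1.36 and 1.63 FPKM in RHBDD2-CKO. It rose by 1.42 in MAGI2-CKO (log2, adjusted p = 1.71e-07, limma) and fell by 2.98 in RHBDD2-CKO (2.55e-10). MYC was at 59.3, 77.4 and 73.6 FPKM in Non-target, 29.2, 35.6 and 36.9 in C9orf89-CKO and 37.7, 37.0 and 38.9 in MLPH-CKO, where it fell by 1.05 (6.3e-05, limma) and 0.88 (0.000205). It was at 83.3 ± 10.2 FPKM in MAGI2-CKO and 80.9 ± 8.55 FPKM in RHBDD2-CKO, and it passed the threshold in neither.

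CSNK1G1, a casein kinase that phosphorylates LRP6, was higher in all 4 clones (log2 fold changes of 0.44, 0.63, 0.75 and 0.42, with adjusted p of 0.00918, 0.000566, 0.000207 and 0.00975 in limma), and the first and last of these calls were lost with only the 6 libraries compared (0.0544 and 0.0661). CDX2, a gut transcription factor, was lower in all 4 (−0.56, −0.52, −0.37 and −0.37), and in MLPH-CKO and RHBDD2-CKO its calls (0.0435 and 0.042, limma) were lost in 13 and 15 of the 25 other settings, up to 0.159 and 0.153 without Non-target replicate 3. TBXT, the Brachyury gene, rose by 1.90 in MAGI2-CKO (0.00138, limma), from 0.154 ± 0.072 FPKM in Non-target to 0.828 ± 0.147 FPKM. The inhibitor SOSTDC1 fell by 1.43 in MLPH-CKO (0.00463, limma) and 1.36 in RHBDD2-CKO (0.0057), and the inhibitors DACT1 and APCDD1 fell by 0.85 (0.000125) and 0.87 (0.00961) in MAGI2-CKO.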

How the data were processed

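RNA was measured in 15 HEK293T libraries, 3 in each of 5 groups that were taken from the labels. The members and lists were chosen with earlier results of these data known. The authors deposited 1 value per gene and library without naming its unit, and the submitters' processing notes list HISAT2 2.0.5, featureCounts 1.5.0-p3 and DESeq2, while the genome build is not given in the sources used here. The deposited values were read as FPKM, because each one times the merged exon length in GENCODE 29 was a whole multiple (tolerance 0.02) of 1 step per library for 100% of values. The fragments so recovered gave the depth.
Genes of 0.5 FPKM or more in 3 or more libraries (16175) entered 1 fit of all 15 libraries with limma 3.58.1 (R 4.3.3, eBayes with trend) on log2(FPKM + 0.1). On this scale the log2 fold changes of weakly expressed genes come out too small. With 3 libraries against 3, an exact permutation test of 1 gene could not go below p = 0.1, so the fit across genes was used. Each clone was contrasted with Non-target and with the other clones, p-values were adjusted over all tested genes of a contrast (Benjamini-Hochberg), and 0.05 was the threshold. Members named with every value had a mean of at least 1 FPKM and, in a clone without overlap with Non-target, a called log2 fold change of at least 1 in size. In addition, the 3 largest rises and falls of each clone, members called in all clones or in opposite directions, CTNNB1, AXIN2, LEF1 and the most abundant member of each role were named. Further values in every library were chosen after they were seen. The fit was tested on simulated data.
The 25 other settings were no filter (32715 genes), a mean of 1 FPKM (12533 genes), pseudocounts of 1 and 0.01, quantile normalization, no trend, only the 6 libraries compared, the replicate number as a block, voom on the fragments, each library left out, and, added after seeing the data, all libraries numbered 1 left out. Promoter windows came from RefSeq (GRCh38.p14), in which 34 members had an entry. Python 3.11.15 did the remaining work.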

Additional observations from a re-analysis of the deposited data

Results flagged for a closer look

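The 5 members below were picked out because they were called in opposite directions in a pair of clones against the same Non-target libraries. This choice fixes the direction of the difference between the clones, so the values are a description with no test. On the log2 scale, SFRP1 differed by −5.27 and FZD10 by −4.47 in RHBDD2-CKO against C9orf89-CKO, and WNT3A by −2.73 in the same pair of clones. LEF1 differed by 0.88 in RHBDD2-CKO against MLPH-CKO, and ROR2 by 2.91 in MLPH-CKO against MAGI2-CKO. The difference of SFRP1 ranged from −8.74 to −2.29 and that of FZD10 from −6.34 to −1.94 over the settings, and both genes were at or near 0 in RHBDD2-CKO.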

How the results depend on the processing

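Of 144 pairs of a named gene and a clone, 86 were called, 54 of them in every setting in which they were tested (108 pairs were in the setting of 1 FPKM or more, which drops low genes) and 61 with each library left out, and 0 reversed. With each library left out in turn, the called members numbered 11 to 17 in RHBDD2-CKO (beside 26.4% to 34.9% of all genes), 9 to 14 in MLPH-CKO (24.0% to 31.1%), 15 to 19 in MAGI2-CKO (29.4% to 36.9%) and 12 to 16 in C9orf89-CKO (20.3% to 27.0%). Only the 6 libraries compared gave 8 in RHBDD2-CKO in place of 16, beside 25.7% of all genes in place of 34.1%, with fewer samples in the fit. With the replicate block the counts were 19, 24, 18 and 24 in place of 14, 18, 11 and 16, beside 35.4%, 44.3%, 38.9% and 43.5% of all genes in place of 26.0%, 36.1%, 30.1% and 34.1%, and only the count of MLPH-CKO moved by over 1.5 times. DVL1 in C9orf89-CKO then passed the threshold (0.0029). The libraries numbered 1 deviated together, while no clone library numbered 2 or 3 correlated with its Non-target counterpart above 0.1, and the labels give no pairing, so the block is given here only. The correlation of a clone library with the Non-target library of its number was 0.0185 to 0.251, over 0.1 in 4 of 12 pairs, all of number 1, and 12 of 15 libraries correlated best with their own number. Of 700 medians of neighbouring genes across settings, 92 moved by more than the spread between replicates. At this depth, folds of SFRP1, FZD10, WNT6 and SP5 rest on few fragments in 1 of the groups.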

Other observations

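Markers of other cell types were at or near 0 in most libraries, with exceptions that differed between libraries. COL1A1 was at 2.24 to 5.42 FPKM and COL3A1 at 0.0701 to 1.47 FPKM, while COL1A2 had at most 1 fragment. The integrin gene ITGB2 was at 0.137 to 0.791 FPKM, while the myeloid genes ITGAM, CD33 and LYZ had at most 3, 5 and 4 fragments. NEFL, a neurofilament gene that HEK293T cells express, averaged 0.984 ± 0.131 FPKM (SD, n = 3) in RHBDD2-CKO, against means of 34.8 in MLPH-CKO, 24.7 in MAGI2-CKO, 24.0 in C9orf89-CKO and 18.8 in Non-target. LHX1, a kidney marker, was also lowest in RHBDD2-CKO, at 0.452 ± 0.0499 FPKM against means of 1.00 to 2.01 in the other groups. The other markers of the line were KRT8 at 2.51 to 16.3 FPKM and PAX2 at 0.528 to 1.32 FPKM. LUM had at most 47 fragments in a library, SPI1 16, PDGFRB 14, the hepatic genes APOA1 and ALB 11 and 2, and the lymphoid genes CD79A and CD3E 10 and 1. The part of these genes in the values of the WNT members was not tested.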
